A study of Homo sapiens with 9 samples.

Results

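The glutathione and thioredoxin genes described here are 10 genes listed as regulated by NRF2, the transcription factor encoded by NFE2L2: SLC7A11, GCLC, GCLM, GSS, GSR, GPX2, TXN, TXNRD1, PRDX1 and SRXN1. They were taken by name from a list of NRF2-regulated genes, with no threshold on a measured value but with earlier results of these data known, out of 58237 genes in the files, and all 10 were among the 18205 genes tested. RNA-seq of total RNA was made from H358, an established line of human non-small cell lung carcinoma, in 3 genotypes of 3 libraries each. The genotypes were BRG1 KO, in which SMARCA4, the gene of BRG1, was knocked out by CRISPR, BRM KO, in which the same was done to SMARCA2, the gene of BRM, and the Parental line. BRG1 and BRM are the ATPases that drive SWI/SNF chromatin remodelling complexes, and each complex holds either the one or the other. All cells grew in RPMI with 10% FBS, and no stressor or NRF2 activator is named. The labels leave unsaid if a knockout is clonal or pooled, and the unedited line is the sole control, so changes brought by editing or passage cannot be told apart from those of the lost gene.

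Glutathione is a small thiol made inside the cell from cysteine, glutamate and glycine, and cysteine mostly arrives as cystine. It is spent by peroxidases that reduce peroxides and is restored by a reductase that uses NADPH. The thioredoxin system runs in parallel: a reductase keeps the protein thioredoxin reduced, and thioredoxin passes electrons to peroxiredoxins and other proteins. NRF2 is held low by KEAP1, which hands it to a CUL3 ubiquitin ligase, and when released it pairs with small MAF proteins and binds antioxidant response elements near many of these genes. In lung carcinoma the NRF2 pathway is known for being switched on by mutations in some tumours.

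The libraries held 31969961 to 40679073 estimated reads. SMARCA4 had 23.9, 21.1 and 23.6 CPM (TMM-scaled counts per 1e6 reads, the unit for levels between libraries below) in BRG1 KO, against 244, 216 and 212 CPM in Parental cells. SMARCA2 had 10.3, 12.01 and 9.36 CPM in BRM KO, against 49.3, 58.0 and 55.5 CPM in Parental cells, so each targeted RNA was low in the libraries labelled for it. BRG1 KO libraries 1 and 2 stood apart from the rest in ribosomal protein RNA, with 10.1% and 10.7% of reads, against 4.97% to 6.30% in the other 7 libraries. Epithelial markers (EPCAM, CDH1, KRT8, KRT18 and KRT19), all 5 of which reached a mean of 1 TPM (transcripts per 1e6) in every group, summed to 428 to 897 TPM in BRG1 KO, 4502 to 5130 TPM in BRM KO and 5050 to 5239 TPM in Parental cells. Lung lineage markers (NKX2-1, FOXA1 and FOXA2) summed to 6.77 to 7.78 TPM in BRG1 KO, with NKX2-1 under 0.1 TPM, to 220 to 316 TPM in BRM KO and to 104 to 158 TPM in Parental cells. Of 5 fibroblast markers, 3 reached 1 TPM in BRG1 KO and 1 each in BRM KO and Parental cells, and their sums were 113 to 344 TPM in BRG1 KO, 40.8 to 53.6 TPM in BRM KO and 13.2 to 24.4 TPM in Parental cells. DCN, a defining fibroblast gene, was under 0.1 TPM in BRM KO and Parental cells, as was PDGFRB in BRM KO. Of 4 blood markers none reached 1 TPM in BRG1 KO and 1 in each other group, with sums of 1.45 to 1.80 TPM in BRG1 KO, 1.92 to 3.28 TPM in BRM KO and 1.78 to 2.59 TPM in Parental cells, and CD3E was under 0.1 TPM throughout. Endothelial markers (PECAM1, CDH5 and KDR) summed to 0.824 to 1.03 TPM in BRG1 KO, 12.1 to 18.2 TPM in BRM KO and 1.39 to 2.17 TPM in Parental cells, with 1 gene at 1 TPM or more in BRM KO and in Parental cells and none in BRG1 KO. Epithelial, lung lineage and fibroblast sums set BRG1 KO apart from the other genotypes, as some of the genes below did. The endothelial sum was highest in BRM KO, and blood sums of BRG1 KO and Parental cells overlapped. The part of these marker differences in the results was not tested. In bulk RNA, fewer cells of a type and less RNA per cell cannot be told apart. The labels number the replicates without saying that they were separate cultures, so the p-values measure the spread between these libraries, which may be technical.

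The core letters of the antioxidant response element, TGACNNNGC, were looked for on both strands in RefSeq promoters (GRCh38.p14), each running from 250 bases before to 50 bases after a gene's start. Of 35116 promoters, 4687 (13.3%) held them. The table covered 6 of the 10 genes in 7 windows, and 3 genes had a match. These were GCLM, GPX2 and TXNRD1, and a match of each is shown. Capitals mark the 9 matching letters, which in all 3 read as the reverse complement on the gene's own strand, with 10 bases on either side.
GCLM: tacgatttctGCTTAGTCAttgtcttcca
GPX2: acctgtttttGCTAAGTCAtcctggggat
TXNRD1: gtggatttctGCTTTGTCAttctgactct
The GCLM stretch is chr1:93909446-93909474 on the minus strand, and its match begins 34 bases before the RefSeq start. The transcript GCLM-204 starts at 93909456, the last base of the match, so the match is not wholly upstream of that transcript. The GPX2 stretch is chr14:64942849-64942877 on the minus strand, with the match 122 bases before the RefSeq start. The TXNRD1 stretch is chr12:104286920-104286948 on the plus strand, 102 bases before a start at 104287032. It lies inside the span of transcripts that start further upstream, among them those that start at 104286682 and 104286881. A second TXNRD1 window, at the start 104215779, had matches beginning 99 and 8 bases before that start. GCLC, TXN and SRXN1 had no match in their windows, which says only that these letters are not in those 300 bases. GPX2 had the largest change of the 10 genes in every comparison, and a longer stretch of its promoter, chr14:64942814-64942912 on the minus strand, is given with the same letters in capitals. It ends 1 base before the start of its main transcript.
GPX2: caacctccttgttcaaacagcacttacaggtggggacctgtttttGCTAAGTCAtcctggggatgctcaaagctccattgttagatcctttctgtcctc
GSS, GSR, SLC7A11 and PRDX1 were not searched.

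Within a library the 10 RNAs spanned a wide range per length. In TPM, which divides by transcript length, PRDX1 averaged 605 ± 37.2 in BRG1 KO, 663 ± 21.1 in BRM KO and 628 ± 61.4 in Parental cells (SD, n = 3 each), the highest of the 10 in every group. TXN followed at 431 ± 52.6 TPM in BRG1 KO, 298 ± 17.2 TPM in BRM KO and 477 ± 83.7 TPM in Parental cells. TXNRD1 came next in all 3 groups by mean TPM. Its libraries lay below all TXN libraries of the same genotype, by a narrow gap in Parental cells, where the lowest TXN library had 389.5 TPM and the highest TXNRD1 library 387 TPM. At the low end of the Parental order stood GCLM with 28.4 ± 2.41 TPM, SLC7A11 with 14.4 ± 5.40 TPM and GPX2 with 7.36 ± 4.22 TPM, and the last pair overlapped, GPX2 reaching 12.2 TPM in library 1 where SLC7A11 had 8.22 TPM. In BRM KO, GPX2 averaged 25.3 ± 8.54 TPM and was level with GCLM at 24.9 ± 7.81 TPM. In BRG1 KO, GPX2 averaged 0.223 ± 0.101 TPM and was the lowest of the 10, below SLC7A11 at 4.52 ± 3.26 TPM. The middle of the order (GSR, GSS, GCLC and SRXN1) ran from 88.7 to 34.5 TPM in Parental cells. GSR followed TXNRD1 in the order of BRM KO and of Parental cells, but stood below GSS and SRXN1 in BRG1 KO, where its 26.1 ± 4.61 TPM did not separate from GCLC at 25.9 ± 17.7 TPM. Summed over the 10 genes, TPM came to 1314, 1374 and 1415 in BRG1 KO, 1510, 1670 and 1488 in BRM KO and 1660, 1816 and 1825 in Parental cells. All BRG1 KO sums lay below the rest, BRM KO and Parental cells overlapped in 1 library each, and PRDX1, TXN and TXNRD1 supplied most of the sum. These sums are in TPM, not in the CPM used between libraries, and the unit matters here. In CPM, PRDX1 averaged 360 in BRG1 KO and 317 in Parental cells, and TXN 208 and 199.5. Both means were higher in BRG1 KO, the other way from TPM. TXNRD1 was lower in BRG1 KO in both units.

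**Figure D1:**
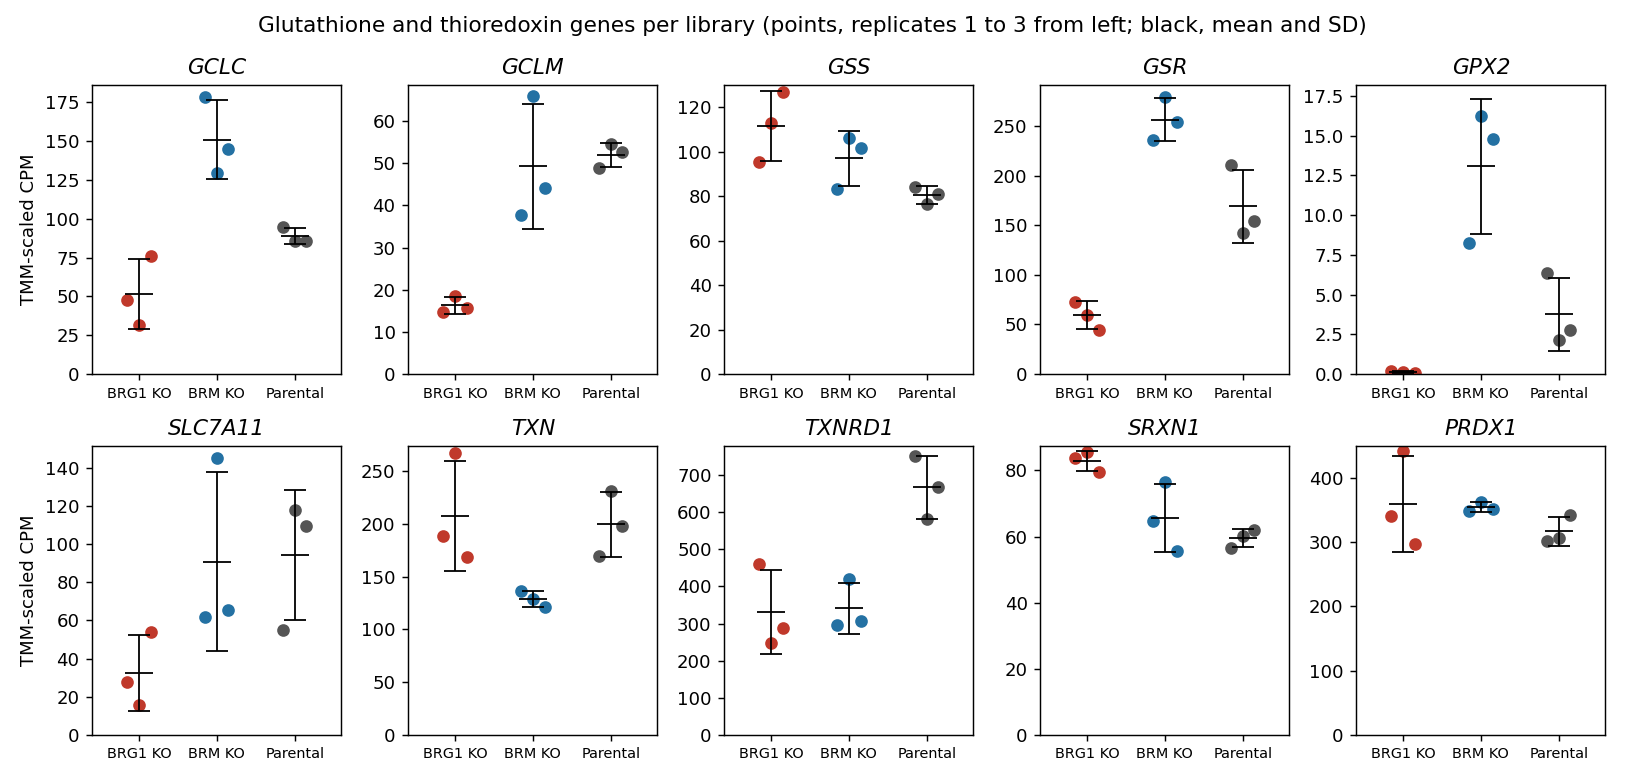
TMM-scaled CPM (vertical axes, linear, each panel with its own range from 0) of the 10 genes in each library of BRG1 KO, BRM KO and Parental cells; points are libraries 1 to 3 from the left, and black bars the mean and SD of 3 libraries. GPX2 lies near 0 in BRG1 KO and is highest in BRM KO, TXNRD1 is lower in both knockouts than in Parental cells, and PRDX1 stays between 297 and 442 CPM throughout.

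Most of the glutathione genes were lower in BRG1 KO cells. Against Parental cells, 5 of the 6 glutathione genes (SLC7A11, GCLC, GCLM, GSR and GPX2) fell in BRG1 KO and GSS rose, while of the 4 thioredoxin genes TXNRD1 fell, SRXN1 rose and TXN and PRDX1 did not pass the test. In BRM KO, GCLC, GSR and GPX2 rose and TXN and TXNRD1 fell, and the other 5 did not pass. TXNRD1 was the 1 gene of the 10 that fell in both knockouts. A call here is an adjusted p under 0.05 in edgeR's quasi-likelihood test with Benjamini-Hochberg adjustment over all 18205 genes, the source of every adjusted p below. For BRG1 KO against Parental cells, 2 of 10 were higher and 6 lower, beside 21.6% and 21.9% of all genes tested. For BRM KO against Parental cells, 3 were higher and 2 lower, beside 21.0% and 16.4% of all genes. These BRM KO counts are near the shares of all genes. The 3 higher became 1 with DESeq2 size factors, with no filter on low counts and without BRG1 KO 1, any single BRM KO library, Parental 2 or Parental 3. The 2 lower became 1 without BRM KO 2, BRM KO 3, Parental 2 or Parental 3. Directly between the knockouts, BRG1 KO was higher for 1 gene (TXN) and lower for 5 (SLC7A11, GCLC, GCLM, GSR and GPX2), beside 21.6% and 23.8% of all genes. The libraries of the 2 groups did not overlap for 8 genes of 10 in BRG1 KO against Parental cells (53.2% of all genes), 6 in BRM KO against Parental cells (58.1%) and 7 in BRG1 KO against BRM KO (55.1%). The median log2 fold change of the 10 was -0.89 in BRG1 KO against Parental cells, 0.15 in BRM KO against Parental cells and -0.76 in BRG1 KO against BRM KO. Over all genes tested it was -0.01 in BRG1 KO against Parental cells, 0.09 in BRM KO against Parental cells and -0.00 in BRG1 KO against BRM KO. Both knockouts are set against the same 3 Parental libraries, so their changes share that error and are given side by side only.

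**Figure D2:**
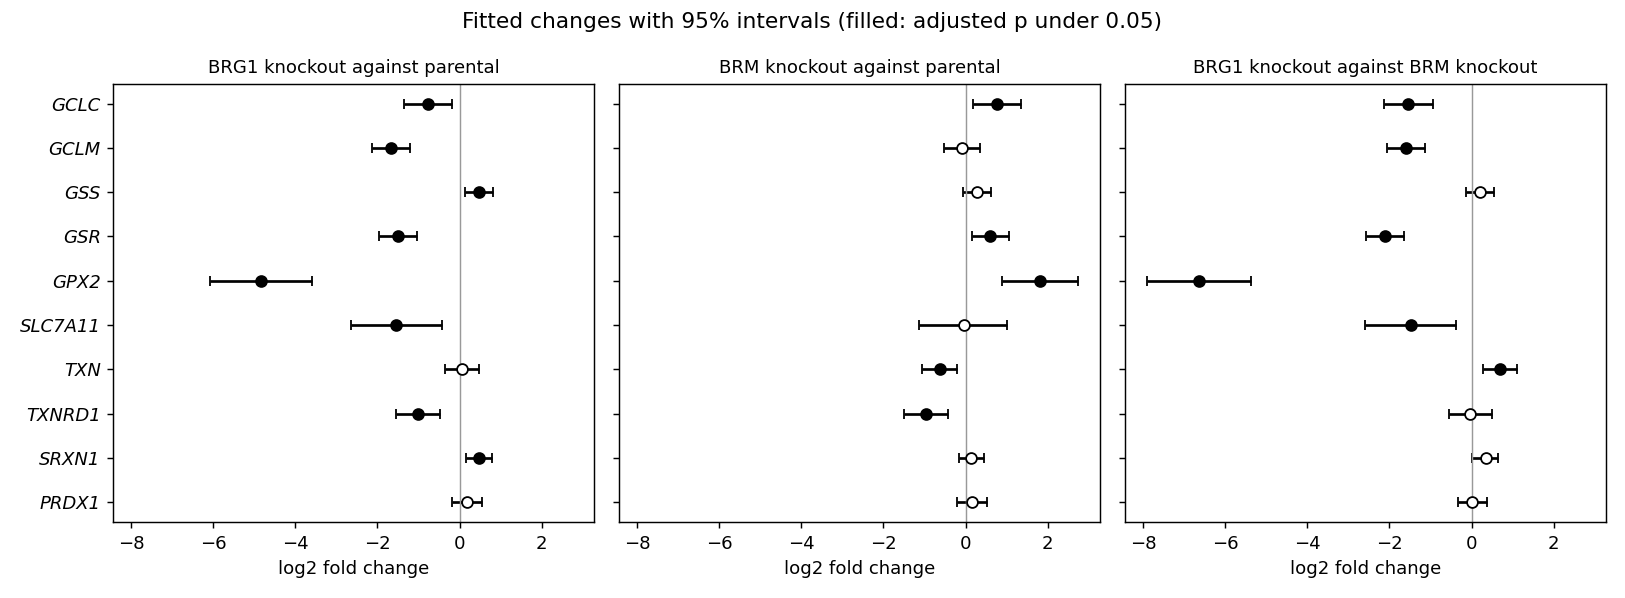
Log2 fold change (horizontal axes) of each gene in BRG1 KO against Parental, BRM KO against Parental and BRG1 KO against BRM KO, with 95% intervals over 3 libraries a group; filled points have an adjusted p under 0.05. SLC7A11, GCLC, GCLM, GSR and GPX2 lie left of 0 in the first and last panels, and GPX2 lies farthest from 0 in all 3.

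SLC7A11 encodes the transport subunit of xCT, which brings cystine into the cell in exchange for glutamate (chr4:138164097-138242349, minus strand, hg38). It had 27.6, 15.7 and 54.2 CPM in BRG1 KO, 62.0, 145 and 65.5 CPM in BRM KO and 55.2, 118 and 110 CPM in Parental cells. All BRG1 KO libraries lay below all others, but the nearest pair, BRG1 KO 3 and Parental 1, differed by little. The fall in BRG1 KO against Parental cells was -1.54 ± 0.49 (log2 fold change ± SE, edgeR adjusted p = 0.03), and against BRM KO it was -1.48 ± 0.49 (edgeR adjusted p = 0.033). In BRM KO against Parental cells the difference was -0.05 with a 95% interval of -1.13 to 1.02 (edgeR adjusted p = 0.94), wide enough to hold a change of the size seen in some of the other genes. The libraries of every group spread widely, the highest over the lowest being 3.46 in BRG1 KO, 2.34 in BRM KO and 2.14 in Parental cells. Leaving out 1 library decided the call: against Parental cells it was lost without BRG1 KO 1 (adjusted p = 0.086), BRG1 KO 2 (0.082), Parental 2 (0.095) or Parental 3 (0.089), and over the 18 alternatives the adjusted p ran from 0.0021 to 0.11. Against BRM KO it was lost without BRG1 KO 1 (0.11), BRG1 KO 2 (0.11), BRM KO 2 (log2 fold change -0.98, adjusted p = 0.13) or Parental 3 (0.0509), over a range of 0.0044 to 0.14. With no filter on low counts the call was lost both against Parental cells (0.11) and against BRM KO (0.14). The size also rests on BRG1 KO 3, the highest library of its group: without it the log2 fold change against Parental cells was -2.21.

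GCLC and GCLM encode the catalytic and the modifier subunit of glutamate-cysteine ligase, the rate-limiting enzyme of glutathione synthesis. GCLC (chr6:53497341-53616970, minus strand) had 47.9, 31.4 and 75.8 CPM in BRG1 KO, 179, 130 and 145 CPM in BRM KO and 94.7, 85.7 and 85.7 CPM in Parental cells. The 3 groups did not overlap, with BRG1 KO lowest and BRM KO highest. GCLC fell by 0.78 ± 0.27 on the log2 scale in BRG1 KO against Parental cells (edgeR adjusted p = 0.035) and changed by 0.77 ± 0.27 in BRM KO against Parental cells (edgeR adjusted p = 0.042). Between the knockouts the log2 difference, BRG1 KO over BRM KO, was -1.55 ± 0.27 (edgeR adjusted p = 0.00091), a call that held under all 18 alternatives tried. The smaller steps from Parental cells were less firm. The fall in BRG1 KO lost its call without BRG1 KO 1 (adjusted p = 0.068), BRM KO 3 (0.0503), Parental 1 (0.084), Parental 2 (0.07) or Parental 3 (0.071), over a range of 0.00049 to 0.084. It was also lost in the fit of only the 6 libraries compared (0.059). The rise in BRM KO was lost in 10 of 18 alternatives, among them an offset for transcript length (log2 fold change 0.55, adjusted p = 0.22) and the removal of BRG1 KO 1 (0.074), BRM KO 1 (0.19), BRM KO 2 (0.0525), BRM KO 3 (0.084), Parental 1 (0.07), Parental 2 (0.12) or Parental 3 (0.12), over a range of 0.0036 to 0.22.

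GCLM (chr1:93885205-93909456, minus strand) separated BRG1 KO from both other genotypes. It had 14.7, 18.6 and 15.7 CPM in BRG1 KO, 37.7, 66.0 and 44.1 CPM in BRM KO and 49.0, 54.6 and 52.6 CPM in Parental cells. The BRG1 KO libraries were tightly grouped and far below all others, and the BRM KO libraries spread across the Parental ones. GCLM was 3.19-fold lower in BRG1 KO than in Parental cells (log2 fold change -1.67 ± 0.21, edgeR adjusted p = 0.00012) and 3.01-fold lower than in BRM KO (-1.59 ± 0.21, edgeR adjusted p = 0.00013), and both calls held under all 18 alternatives. In BRM KO against Parental cells the log2 difference was -0.08, with a 95% interval of -0.52 to 0.36 (edgeR adjusted p = 0.78). The ratio of GCLC to GCLM in TPM was 4.65, 1.35 and 5.59 in BRG1 KO, 6.12, 2.29 and 3.48 in BRM KO and 2.44, 2.14 and 1.89 in Parental cells. The groups overlapped, and 2 of 3 libraries of each knockout lay above all Parental ones.

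GSS encodes glutathione synthetase, which adds glycine in the last step of synthesis (chr20:34928433-34956027, minus strand). It had 95.4, 113 and 127 CPM in BRG1 KO, 83.1, 106 and 102 CPM in BRM KO and 84.1, 76.4 and 80.8 CPM in Parental cells. It was the 1 glutathione gene higher in BRG1 KO than in Parental cells, with no overlap (log2 fold change 0.47 ± 0.15, edgeR adjusted p = 0.027). The rise was small and lost its call without BRG1 KO 2 (adjusted p = 0.077), BRG1 KO 3 (0.11), BRM KO 1 (0.058), Parental 2 (0.096) or Parental 3 (0.082), over a range of 0.016 to 0.13. It was also lost with no filter on low counts (0.11) and without both Parental 1 and BRG1 KO 3 (0.13). The difference of BRM KO from Parental cells was 0.27, with a 95% interval of -0.07 to 0.61 (edgeR adjusted p = 0.19), and that of BRG1 KO from BRM KO 0.20, with an interval of -0.13 to 0.54 (edgeR adjusted p = 0.3).

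GSR encodes glutathione reductase, which returns glutathione disulfide to the reduced form with NADPH (chr8:30678061-30727999, minus strand). It had 73.1, 59.9 and 44.7 CPM in BRG1 KO, 236, 280 and 254 CPM in BRM KO and 211, 142 and 155 CPM in Parental cells. The order BRG1 KO below Parental below BRM KO held without overlap. GSR was 2.85-fold lower in BRG1 KO than in Parental cells (log2 fold change -1.51 ± 0.21, edgeR adjusted p = 0.00024) and 4.33-fold lower than in BRM KO (-2.11 ± 0.21, edgeR adjusted p = 2.4e-05), and neither call was lost under any of the 18 alternatives. The rise in BRM KO over Parental cells, 0.60 ± 0.21 (edgeR adjusted p = 0.04), was lost in 9 of 18, among them the removal of BRG1 KO 1 (0.058), BRG1 KO 2 (0.066), BRM KO 1 (0.094), BRM KO 2 (0.11), BRM KO 3 (0.091), Parental 2 (0.15) or Parental 3 (0.14), over a range of 0.0028 to 0.15. The ratio of GSR to TXNRD1, the reductases of the glutathione and thioredoxin branches, was 0.184, 0.288 and 0.157 in TPM in BRG1 KO, 0.777, 0.663 and 0.768 in BRM KO and 0.269, 0.259 and 0.224 in Parental cells. In every BRM KO library GSR thus stood higher relative to TXNRD1 than in any other library.

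GPX2 encodes a selenium-containing glutathione peroxidase known from the epithelium of the gut, and it was the gene with the widest change (chr14:64939152-64942905, minus strand). It had 0.199, 0.105 and 0.0830 CPM in BRG1 KO, 8.23, 16.2 and 14.8 CPM in BRM KO and 6.36, 2.17 and 2.74 CPM in Parental cells. In reads this was 7, 4 and 3 in BRG1 KO, 307, 538 and 584 in BRM KO and 207, 83 and 115 in Parental cells. The 3 genotypes did not overlap, BRG1 KO being close to none and BRM KO highest, though BRM KO 1 and Parental 1 were near each other. The log2 fold change of BRG1 KO was -4.83 ± 0.56 against Parental cells (28.4-fold lower, edgeR adjusted p = 7.9e-05) and -6.63 ± 0.58 against BRM KO (99.2-fold lower, edgeR adjusted p = 8.5e-06). These sizes rest on 14 reads over the 3 BRG1 KO libraries, so the 95% interval against Parental cells ran from -6.07 to -3.59 and that against BRM KO from -7.90 to -5.36. In BRM KO, GPX2 was 3.49-fold higher than in Parental cells (1.80 ± 0.42, edgeR adjusted p = 0.0069). All 3 calls held under the 18 alternatives, but Parental 1 moves the sizes: without it the log2 fold change was -4.22 in BRG1 KO and 2.41 in BRM KO against Parental cells. The GPX2 span overlaps CHURC1, a zinc finger gene on the opposite strand, without a shared exon base. CHURC1 had 61.3, 57.9 and 44.8 CPM in BRG1 KO, 44.4, 34.5 and 44.5 CPM in BRM KO and 29.3, 29.8 and 29.3 CPM in Parental cells. It rose in BRG1 KO, the other way from GPX2 (0.89 ± 0.16, edgeR adjusted p = 0.0014). In BRM KO it rose as GPX2 did (0.48 ± 0.16, edgeR adjusted p = 0.038). This call was kept in 5 of 18 alternatives, with log2 fold changes from -0.06 to 0.59, and was lost without BRG1 KO 1 or 2, BRM KO 1 or 3, or any Parental library (adjusted p up to 0.83).

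TXN encodes thioredoxin itself (chr9:110243811-110256640, minus strand). It had 188, 267 and 168 CPM in BRG1 KO, 136, 129 and 121 CPM in BRM KO and 170, 231 and 198 CPM in Parental cells. The BRM KO libraries were the lowest 3 of the 9, and BRG1 KO and Parental libraries overlapped. TXN fell in BRM KO against Parental cells (log2 fold change -0.63 ± 0.19, edgeR adjusted p = 0.023), and this call was lost without BRM KO 2 (0.059), BRM KO 3 (0.087), Parental 2 (0.1) or Parental 3 (0.065), over a range of 0.0025 to 0.1. BRG1 KO exceeded BRM KO by 0.69 ± 0.19 (edgeR adjusted p = 0.012), a call lost without BRM KO 3 (0.0526, over a range of 0.002 to 0.0526). For BRG1 KO against Parental cells the difference was 0.06, with a 95% interval of -0.36 to 0.47 (edgeR adjusted p = 0.83), and without BRG1 KO 2 it was -0.23.

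TXNRD1 encodes the cytosolic thioredoxin reductase, a selenoprotein (chr12:104215779-104350305, plus strand). It had 460, 246 and 289 CPM in BRG1 KO, 296, 419 and 307 CPM in BRM KO and 752, 583 and 666 CPM in Parental cells. Every knockout library lay below every Parental library, and the knockouts overlapped. The share of reads on genes annotated as ribosomal RNA split the libraries the same way, with 0.357% to 0.492% in BRG1 KO, 0.437% to 0.651% in BRM KO and 0.154% to 0.220% in Parental cells. Its part in this or any other difference from Parental cells was not tested. TXNRD1 was 2.01-fold lower in BRG1 KO (log2 fold change -1.01 ± 0.24, edgeR adjusted p = 0.0061) and 1.96-fold lower in BRM KO (-0.97 ± 0.24, edgeR adjusted p = 0.0092) than in Parental cells, and both calls held under the 18 alternatives. Between BRG1 KO and BRM KO the difference was -0.04, with a 95% interval of -0.56 to 0.49 (edgeR adjusted p = 0.91). Both falls are measured from the same Parental libraries. The ratio of TXN to TXNRD1 in TPM was 2.28, 6.25 and 2.69 in BRG1 KO, 2.01, 1.34 and 1.68 in BRM KO and 1.01, 1.75 and 1.37 in Parental cells. In TPM all BRG1 KO libraries lay above the rest, and the other groups overlapped. This separation was not seen in CPM, which does not divide by transcript length. In CPM, BRG1 KO 1 had 188 for TXN and 460 for TXNRD1, and BRM KO 1 had 136 and 296. On these values TXN stood lower relative to TXNRD1 in BRG1 KO 1 than in BRM KO 1.

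PRDX1 encodes a peroxiredoxin that reduces hydrogen peroxide with electrons from thioredoxin (chr1:45511036-45523047, minus strand). It had 341, 442 and 297 CPM in BRG1 KO, 349, 363 and 351 CPM in BRM KO and 302, 306 and 343 CPM in Parental cells. No comparison passed. Against Parental cells the difference was 0.18 in BRG1 KO, with a 95% interval of -0.18 to 0.54 (edgeR adjusted p = 0.39), and 0.16 in BRM KO, with an interval of -0.20 to 0.52 (edgeR adjusted p = 0.47), and the 3 BRM KO libraries all lay slightly above the Parental ones. Between BRG1 KO and BRM KO it was 0.02, with an interval of -0.34 to 0.38 (edgeR adjusted p = 0.92). These intervals leave out a change of 1 on the log2 scale, such as TXNRD1 had in both knockouts. PRDX1 shares 379 exon bases with MMACHC on the opposite strand, whose own reads came to at most 7.65% of those of PRDX1.

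SRXN1 encodes sulfiredoxin, which repairs peroxiredoxins that have been overoxidised (chr20:646615-653370, minus strand). It had 83.7, 85.5 and 79.7 CPM in BRG1 KO, 64.8, 76.5 and 55.8 CPM in BRM KO and 56.5, 60.1 and 62.1 CPM in Parental cells. BRG1 KO libraries were above all others, and BRM KO and Parental libraries overlapped. The rise in BRG1 KO over Parental cells was 0.48 ± 0.14 (edgeR adjusted p = 0.02), which was lost without BRG1 KO 1 (0.093), BRG1 KO 2 (0.072), BRM KO 1 (0.066), Parental 1 (0.057), Parental 2 (0.058) or Parental 3 (0.0526), over a range of 0.011 to 0.11. This call was also lost with no filter on low counts (0.11) and without both Parental 1 and BRG1 KO 3 (0.075). BRG1 KO exceeded BRM KO by 0.34, with a 95% interval of 0.02 to 0.65, and missed the threshold after adjustment (edgeR adjusted p = 0.076), although it passed without BRM KO 2 (0.46, adjusted p = 0.03, over a range of 0.03 to 0.29). BRM KO differed from Parental cells by 0.14, with an interval of -0.17 to 0.46 (edgeR adjusted p = 0.47).

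The genes also differed in how alike the replicates were. The coefficient of variation over 3 libraries in BRG1 KO was 3.63% for SRXN1 and 12.2% for GCLM, against 60.8% for SLC7A11, 47.7% for GPX2, which had few reads, and 43.4% for GCLC. In BRM KO it was 2.15% for PRDX1 and 51.7% for SLC7A11. In Parental cells it was under 8% for GCLC, GCLM, GSS, SRXN1 and PRDX1, and 60.5% for GPX2, where library 1 was 2.94 times the lowest. SLC7A11 and GPX2 were over 30% in all 3 genotypes.

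Transcript shares shifted in GCLC, TXNRD1 and GSS, and in some libraries also in GSR and GCLM. Salmon divides reads among transcripts by inference, so shares are described without a test. GCLC-213, a protein-coding transcript of 16 exons that starts at 53548206 on chromosome 6, upstream of the main transcript's start at 53545129, was estimated at 6.53, 6.06 and 0 TPM in BRG1 KO and was listed at 0 in all BRM KO and Parental libraries. It made 30.1% and 56.7% of the gene's TPM in BRG1 KO libraries 1 and 2, the libraries with the high ribosomal protein share, and none in library 3. GCLC-201, the main transcript, held 46.5% ± 9.28 in BRG1 KO, 52.6% ± 4.36 in BRM KO and 43.2% ± 6.48 in Parental cells (SD, n = 3 each). GCLC-211, a processed transcript of 553 bases, held 10.2% ± 9.11 in BRG1 KO, 25.3% ± 4.26 in BRM KO and 30.6% ± 4.06 in Parental cells. In TXNRD1, TXNRD1-206 held 1.64%, 0.160% and 22.0% in BRG1 KO, against 20.8% ± 1.56 in BRM KO and 22.1% ± 2.07 in Parental cells, so that BRG1 KO 3 resembled the other genotypes and BRG1 KO 1 and 2 did not. The TXNRD1 transcript of 3974 bases that starts at 104286881 held 37.6%, 45.2% and 31.6% in BRG1 KO, 19.9%, 15.8% and 23.2% in BRM KO and 29.9%, 29.7% and 34.3% in Parental cells. It was lower in every BRM KO library than in any other. Transcripts starting within 1000 bases of the RefSeq start at 104287032, the one beside the printed TXNRD1 sequence, held 97.3%, 92.8% and 98.7% of TXNRD1 in BRG1 KO, 99.6%, 99.2% and 99.3% in BRM KO and 98.4%, 98.8% and 97.9% in Parental cells. The transcript of 3974 bases is among them and starts before the printed sequence, as does one of 3930 bases that starts at 104286682. The printed sequence lies inside the spans of both, so this share is not all downstream of it. The transcript of 3930 bases held 34.8% ± 9.84 in BRG1 KO, 34.4% ± 5.43 in BRM KO and 25.8% ± 1.95 in Parental cells. Transcripts starting near 104215779 held 0.614%, 5.56% and 0% in BRG1 KO, 0% in BRM KO and 0.0343% to 0.244% in Parental cells. GPX2-201 held at least 88.3% and TXN-202 at least 99.6% of their genes in every library, and GSR-201 averaged 91.0% ± 9.47 in BRG1 KO, 82.6% ± 3.06 in BRM KO and 85.0% ± 9.26 in Parental cells. GSR-206 held 0.511%, 1.68% and 11.1% in BRG1 KO, 10.6%, 20.8% and 10.5% in BRM KO and 8.91%, 22.8% and 3.91% in Parental cells. BRG1 KO 1 and 2 were again the lowest libraries. GCLM-203 held 0%, 32.6% and 24.8% in BRG1 KO, against 21.9% ± 3.76 in BRM KO and 26.8% ± 0.847 in Parental cells. GSS-214, a retained intron transcript, held 5.01%, 0% and 5.36% in BRG1 KO, 9.35%, 11.0% and 8.86% in BRM KO and 4.83%, 4.45% and 6.07% in Parental cells. It was higher in every BRM KO library than in any other. GSS-210 held 8.09%, 10.2% and 5.91% in BRG1 KO, 3.80%, 8.32% and 3.30% in BRM KO and 2.16%, 3.92% and 0.849% in Parental cells. All BRG1 KO libraries lay above the Parental ones, and the knockouts overlapped.

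**Figure D3:**
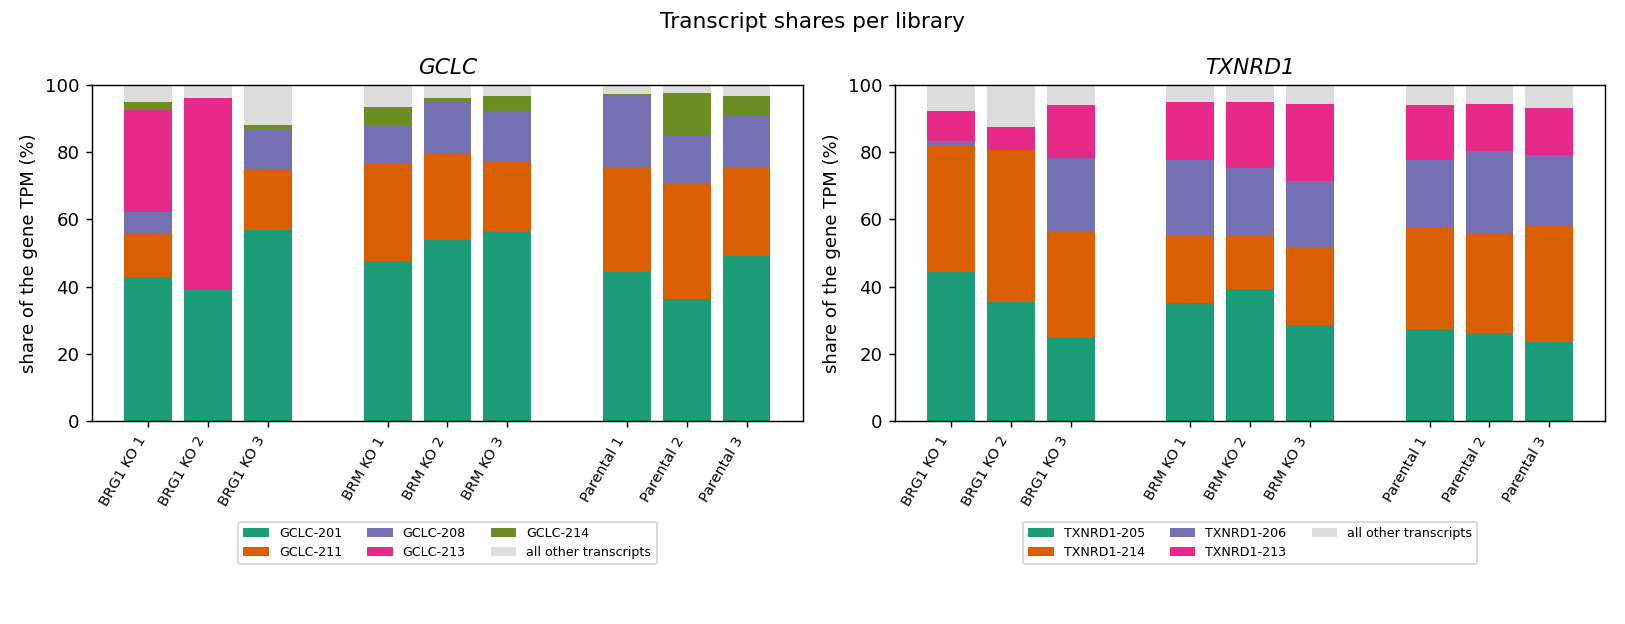
Share of the gene's TPM (vertical axes, percent) by transcript in each library for GCLC and TXNRD1; each bar is a library and the grey part is all other transcripts. GCLC-213 is seen in BRG1 KO 1 and 2 alone, with 30.1% and 56.7%, and TXNRD1-206 is nearly missing from the same libraries.

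Around the 10 genes, glutathione supply and turnover had genes changed in both directions. Of 14 tested genes of 15 listed, 5 rose and 3 fell in BRG1 KO against Parental cells (median log2 fold change -0.11), 6 rose and 3 fell in BRM KO against Parental cells (median 0.71), and 2 were higher and 4 lower in BRG1 KO than in BRM KO (median -0.16). The shares of all genes tested that were higher and lower were 21.6% and 21.9% in BRG1 KO against Parental cells, 21.0% and 16.4% in BRM KO against Parental cells, and 21.6% and 23.8% in BRG1 KO against BRM KO. A list count near its share is no result about the list. CHAC1, a gamma-glutamylcyclotransferase that breaks down glutathione, had 32.7, 26.0 and 40.2 CPM in BRG1 KO, 15.8, 27.1 and 17.2 CPM in BRM KO and 4.30, 5.71 and 6.63 CPM in Parental cells. It rose in BRG1 KO (2.57 ± 0.27, edgeR adjusted p = 4e-05) and in BRM KO (1.85 ± 0.26, edgeR adjusted p = 0.00052) against Parental cells. GGT7, a member of the gamma-glutamyltransferase family, rose by 1.66 ± 0.20 in BRG1 KO (edgeR adjusted p = 9.1e-05) and 1.83 ± 0.20 in BRM KO (edgeR adjusted p = 0.00016). GGCT, which makes oxoproline from gamma-glutamyl amino acids, fell by 1.13 ± 0.16 on the log2 scale in BRG1 KO (edgeR adjusted p = 0.00032) and by 0.98 ± 0.16 in BRM KO (edgeR adjusted p = 0.0012). The difference of BRG1 KO from BRM KO did not pass (-0.15, edgeR adjusted p = 0.47). CHAC2, the relative of CHAC1, changed by -1.81 ± 0.31 in BRM KO (edgeR adjusted p = 0.0014) and by -0.90 ± 0.30 in BRG1 KO (edgeR adjusted p = 0.033). The call in BRG1 KO was lost without BRG1 KO 1, Parental 2 or Parental 3, with an adjusted p of up to 0.1. OPLAH, which opens oxoproline to glutamate, rose by 0.85 ± 0.29 in BRG1 KO (edgeR adjusted p = 0.034) and 2.01 ± 0.29 in BRM KO (edgeR adjusted p = 0.00058) against Parental cells. The call in BRG1 KO was kept in 10 of 18 alternatives and lost without any BRG1 KO library, BRM KO 1, Parental 2 or Parental 3 (adjusted p up to 0.13). OPLAH was lower in BRG1 KO than in BRM KO (-1.17 ± 0.29, edgeR adjusted p = 0.0067). CTH, which makes cysteine from cystathionine, had 11.3, 8.47 and 7.77 CPM in BRG1 KO against 29.5, 35.7 and 25.0 CPM in BRM KO (-1.71 ± 0.21, edgeR adjusted p = 8.1e-05). Parental cells had 12.7, 9.94 and 10.8 CPM. Against them CTH rose in BRM KO (1.43 ± 0.20, edgeR adjusted p = 0.00054), and its difference in BRG1 KO did not pass (-0.28, edgeR adjusted p = 0.29). GGT1 was also lower in BRG1 KO than in BRM KO (-1.10 ± 0.26, edgeR adjusted p = 0.0058). CBS, which makes cystathionine, rose in both knockouts against Parental cells, by 0.77 ± 0.18 in BRG1 KO (edgeR adjusted p = 0.005) and 1.25 ± 0.18 in BRM KO (edgeR adjusted p = 0.00053). It was lower in BRG1 KO than in BRM KO (-0.48 ± 0.18, edgeR adjusted p = 0.046), a call kept in 8 of 18 alternatives and lost without BRG1 KO 1 or 2, any BRM KO library or Parental 3 (adjusted p up to 0.13).

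Of 20 tested glutathione peroxidases, transferases and glutaredoxins (22 listed), 5 rose and 5 fell in BRG1 KO against Parental cells (median 0.05), 6 rose and 2 fell in BRM KO against Parental cells (median 0.05), and 5 were higher and 8 lower in BRG1 KO than in BRM KO (median -0.20). Over all genes, 21.6% were higher and 21.9% lower in the first comparison, 21.0% and 16.4% in the second, and 21.6% and 23.8% in the third. Most of these counts are near that background. GSTP1, a glutathione transferase, had 88.5, 130 and 60.3 CPM in BRG1 KO, 268, 240 and 258 CPM in BRM KO and 501, 414 and 437 CPM in Parental cells. Its fall was -2.28 ± 0.24 in BRG1 KO (edgeR adjusted p = 4.5e-05) and -0.82 ± 0.23 in BRM KO (edgeR adjusted p = 0.018), where the call was lost without BRM KO 2, BRM KO 3 or Parental 1 (adjusted p up to 0.06). GSTM3, another transferase, rose in BRG1 KO (2.26 ± 0.26, edgeR adjusted p = 6.5e-05) and in BRM KO (1.79 ± 0.25, edgeR adjusted p = 0.0005). GSTM4 rose in BRG1 KO (2.18 ± 0.69, edgeR adjusted p = 0.026) and in BRM KO (2.49 ± 0.69, edgeR adjusted p = 0.017). The call in BRG1 KO was lost without BRG1 KO 3, Parental 2 or Parental 3 (adjusted p up to 0.098) and that in BRM KO without BRM KO 2, Parental 2 or Parental 3 (up to 0.072). GSTM genes are closely similar neighbours, so reads may be split between them. GPX8, a peroxidase of the endoplasmic reticulum, was higher in BRG1 KO than in Parental cells (1.60 ± 0.21, edgeR adjusted p = 0.00018) and than in BRM KO (1.73 ± 0.21, edgeR adjusted p = 9e-05). MGST1, a membrane-bound transferase, was lower in BRG1 KO than in BRM KO (-1.76 ± 0.24, edgeR adjusted p = 0.00018), as was GSTA4, which acts on lipid aldehydes (-2.22 ± 0.35, edgeR adjusted p = 0.00048). Against Parental cells MGST1 fell in BRG1 KO (-0.98 ± 0.24, edgeR adjusted p = 0.0069) and rose in BRM KO (0.79 ± 0.24, edgeR adjusted p = 0.023). GSTA4 rose in BRM KO against Parental cells (1.62 ± 0.34, edgeR adjusted p = 0.0042), and GLRX5, a mitochondrial glutaredoxin of iron-sulfur cluster assembly, fell there (-1.14 ± 0.19, edgeR adjusted p = 0.0013). GSTM2 was higher in BRG1 KO than in BRM KO (1.50 ± 0.42, edgeR adjusted p = 0.013), a call lost without BRM KO 2 or BRM KO 3 (adjusted p up to 0.059).

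Among 20 other thioredoxin and peroxiredoxin genes, all tested, 8 rose and 2 fell in BRG1 KO against Parental cells (median 0.39), 5 rose and none fell in BRM KO against Parental cells (median 0.04), and 8 were higher and 4 lower in BRG1 KO than in BRM KO (median 0.46). The background over all genes was 21.6% higher and 21.9% lower for BRG1 KO against Parental cells, 21.0% and 16.4% for BRM KO against Parental cells, and 21.6% and 23.8% between the knockouts. The 5 that rose in BRM KO are near it. MSRB3, a methionine sulfoxide reductase, had 33.4, 36.0 and 68.5 CPM in BRG1 KO, 4.99, 6.29 and 5.95 CPM in BRM KO and 6.17, 7.57 and 5.82 CPM in Parental cells. It was 7.04-fold higher in BRG1 KO than in Parental cells (2.82 ± 0.28, edgeR adjusted p = 2.9e-05) and higher than in BRM KO (3.00 ± 0.28, edgeR adjusted p = 1.5e-05). TXNRD3, a relative of TXNRD1, changed the other way from TXNRD1, by 1.71 ± 0.23 in BRG1 KO (edgeR adjusted p = 0.00022) and 1.10 ± 0.23 in BRM KO (edgeR adjusted p = 0.0041). It averaged 7.91 CPM in BRG1 KO and 5.19 CPM in BRM KO, and the call in BRM KO was lost with an offset for transcript length (adjusted p = 0.079). NXN, which encodes nucleoredoxin, rose in BRG1 KO against Parental cells (1.47 ± 0.30, edgeR adjusted p = 0.0026) and was higher than in BRM KO (1.38 ± 0.30, edgeR adjusted p = 0.0033). TXNIP, which binds and restrains thioredoxin, rose in BRG1 KO (2.15 ± 0.69, edgeR adjusted p = 0.03), a call kept in 10 of 18 alternatives and lost without any 1 of the BRG1 KO or Parental libraries (adjusted p up to 0.18). PRDX4, a peroxiredoxin of the endoplasmic reticulum, was higher in BRG1 KO than in BRM KO (1.13 ± 0.16, edgeR adjusted p = 0.00028). Against Parental cells PRDX4 rose in BRG1 KO (1.17 ± 0.16, edgeR adjusted p = 0.00026) and did not pass in BRM KO (0.04, edgeR adjusted p = 0.86). The sestrins SESN2 (1.26 ± 0.20, edgeR adjusted p = 0.00084) and SESN3 (2.21 ± 0.46, edgeR adjusted p = 0.0045) rose in BRM KO against Parental cells, and SESN2 was lower in BRG1 KO than in BRM KO (-1.28 ± 0.20, edgeR adjusted p = 0.00039). TXNDC17, a thioredoxin-like protein, rose in BRM KO (0.93 ± 0.23, edgeR adjusted p = 0.0087), which was lost without BRM KO 1 (adjusted p = 0.058).

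**Figure D4:**
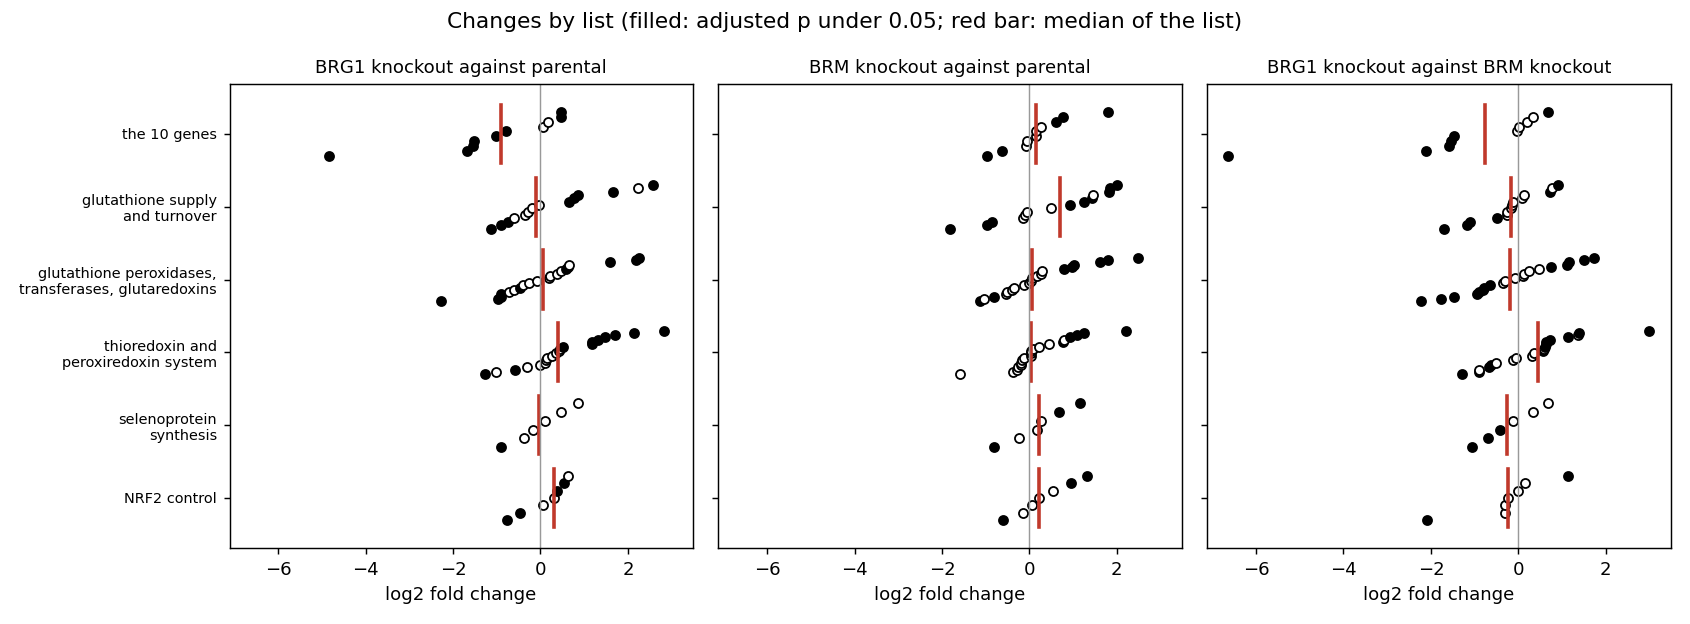
Log2 fold change (horizontal axes) of each tested gene of the 10 and of 5 lists around them, in the 3 comparisons; filled points have an adjusted p under 0.05 and red bars mark the median of the list. The 10 genes have a median of -0.89 in BRG1 KO against Parental and of 0.15 in BRM KO against Parental. They and every other list have points on both sides of 0 in each comparison.

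Selenoprotein synthesis, on which TXNRD1 and GPX2 depend, was measured by 6 genes. In BRG1 KO against Parental cells 1 fell and none rose (median -0.02), in BRM KO against Parental cells 2 rose and 1 fell (median 0.22), and 3 were lower and none higher in BRG1 KO than in BRM KO (median -0.26). With 21.6% of all genes higher and 21.9% lower in the first comparison, 21.0% and 16.4% in the second and 21.6% and 23.8% in the third, so few genes show nothing about the list. SEPHS2, which makes the selenium donor, had 48.8, 45.5 and 51.5 CPM in BRG1 KO, 55.3, 56.6 and 45.0 CPM in BRM KO and 90.2, 90.1 and 94.4 CPM in Parental cells. Like TXNRD1 it fell in BRG1 KO (-0.91 ± 0.14, edgeR adjusted p = 0.00038) and in BRM KO (-0.81 ± 0.14, edgeR adjusted p = 0.0013). TRNAU1AP, which binds the selenocysteine tRNA, rose in BRM KO (1.16 ± 0.20, edgeR adjusted p = 0.0015) and was lower in BRG1 KO than in BRM KO (-0.69 ± 0.20, edgeR adjusted p = 0.017), where the call was lost without BRM KO 3 (adjusted p = 0.052). SEPSECS, which forms selenocysteine on that tRNA, was lower in BRG1 KO than in BRM KO (-1.06 ± 0.23, edgeR adjusted p = 0.0034). Its rise in BRM KO against Parental cells (0.68 ± 0.23, edgeR adjusted p = 0.036) was kept in 12 of 18 alternatives and lost without BRM KO 2 or 3, or Parental 2 or 3 (adjusted p up to 0.2). SECISBP2, which reads the selenocysteine signal in the RNA, was lower in BRG1 KO than in BRM KO (-0.42 ± 0.13, edgeR adjusted p = 0.019), a call lost without BRM KO 2 or BRM KO 3 (adjusted p up to 0.088).

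The genes that control NRF2 did not follow a single direction. Of 7 genes, 2 rose and 2 fell in BRG1 KO against Parental cells (median 0.30), 2 rose and 1 fell in BRM KO against Parental cells (median 0.23), and 1 was higher and 1 lower in BRG1 KO than in BRM KO (median -0.23). These counts are near the shares of all genes, 21.6% higher and 21.9% lower for BRG1 KO against Parental cells, 21.0% and 16.4% for BRM KO against Parental cells, and 21.6% and 23.8% for BRG1 KO against BRM KO. KEAP1 had 80.9, 88.9 and 78.4 CPM in BRG1 KO, 39.6, 35.6 and 37.5 CPM in BRM KO and 59.2, 54.0 and 59.1 CPM in Parental cells. It rose in BRG1 KO (0.53 ± 0.13, edgeR adjusted p = 0.0061), a call lost with no filter on low counts (adjusted p = 0.057), fell in BRM KO (-0.61 ± 0.13, edgeR adjusted p = 0.0036) and was higher in BRG1 KO than in BRM KO (1.14 ± 0.13, edgeR adjusted p = 4.6e-05). MAFF, a small MAF partner of NRF2, rose in BRM KO (1.32 ± 0.28, edgeR adjusted p = 0.0043) and was lower in BRG1 KO than in BRM KO (-2.09 ± 0.29, edgeR adjusted p = 0.00019). Its fall in BRG1 KO against Parental cells (-0.77 ± 0.28, edgeR adjusted p = 0.0451) was kept in 8 of 18 alternatives and lost without BRG1 KO 1 or 3, BRM KO 2 or 3, or Parental 1 (adjusted p up to 0.2). NFE2L2 itself averaged 120 ± 10.4 CPM in BRG1 KO and 92.0 CPM in Parental cells (0.38 ± 0.13, edgeR adjusted p = 0.036). This call was kept in 7 of 18 alternatives and lost without BRG1 KO 1 or 3, BRM KO 1 or 3, or any Parental library (adjusted p up to 0.26). BRM KO had 111, 104 and 109 CPM of NFE2L2, all above the Parental libraries, but the difference did not pass (0.23, edgeR adjusted p = 0.19). BRG1 KO and BRM KO libraries overlapped for NFE2L2 (0.15, edgeR adjusted p = 0.38). CUL3 fell in BRG1 KO (-0.46 ± 0.13, edgeR adjusted p = 0.014), which was lost without Parental 2 or with an offset for transcript length (adjusted p up to 0.37). These are RNA levels, and no protein level was measured.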

How the data were processed

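Total RNA of 9 H358 libraries was sequenced, 3 per genotype. The authors deposited 1 Salmon table per library, with an estimated count per transcript that was not normalized. Per the file headers, TPM and effective length are further columns of these deposited tables. Tools named in the submitters' processing notes are Salmon and DESeq2, with build hg38. Versions, annotation, library type and strand setting were not given in the sources read.

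Of 203835 transcripts, 203746 matched a gene of GENCODE release 29, the source of coordinates, and 89 without a gene held at most 0.0193% of reads. Estimated counts were summed per gene, rounded and tested in edgeR 4.0.16 (R 4.3.3): filterByExpr kept 18205 of 58237 genes, scaling used TMM, and glmQLFit (robust) fitted the 3 group means to all 9 libraries at once (6 residual degrees of freedom, common biological coefficient of variation 0.253). Quasi-likelihood F tests were two-sided, with Benjamini-Hochberg adjustment over all genes tested and a threshold of 0.05. SE was derived from the log2 fold change and its F statistic, and 95% intervals use it, both approximate and covering the spread between libraries. The procedure was tested on simulated data. Levels between libraries are TMM-scaled CPM, and levels between genes are TPM. Samples were grouped by the labelled genotype.

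The 10 genes and the other lists were chosen with earlier results of these data known. All 10 genes are named in every comparison. From each pathway list, up to 4 called genes with the largest absolute change are named, given no overlap between groups and a mean log2 CPM of 1 or more where expression is higher. CHURC1 and MMACHC are named for overlapping a gene of the 10, and other values of a named gene were added after they were seen. DPEP1, GPX7 and GSTA1 fell below the filter. The 18 alternatives were other size factors, DESeq2 1.42.0, limma 3.58.1 voom, no filter, a stricter filter, a fit of 6 libraries, the replicate block, a transcript length offset, each library left out, and Parental 1 with BRG1 KO 3 left out. Promoter sequences are from RefSeq (GRCh38.p14).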

Additional observations from a re-analysis of the deposited data

How the results depend on the processing

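Calls that held under all 18 alternatives were those of GCLM, GSR, GPX2 and TXNRD1 in BRG1 KO against Parental cells, of GPX2 and TXNRD1 in BRM KO against Parental cells, and of GCLC, GCLM, GSR and GPX2 in BRG1 KO against BRM KO. Of 540 alternative values of the 10 genes, 465 kept direction and side of the threshold, 55 lost the call, 3 gained it and 17 changed sign. The number higher in BRG1 KO than in Parental cells (2) became 0 with no filter on low counts and 0 without Parental 1 and BRG1 KO 3, and ran from 0 to 2 with single libraries left out. The number higher in BRM KO than in Parental cells (3) became 1 with DESeq2 size factors and 1 with no filter, and ran from 1 to 3 with single libraries left out, while the number lower (2) ran from 1 to 2. The number higher in BRG1 KO than in BRM KO (1) became 2 with DESeq2 and 2 without Parental 1 and BRG1 KO 3, and ran from 0 to 2 with single libraries left out. The numbers lower in BRG1 KO, 6 against Parental cells and 5 against BRM KO, were at least 4 under all 18. Over all genes tested, 3814 were higher in BRM KO than in Parental cells, against 2457 without Parental 2 and 2469 without Parental 3.

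Sign changes fell on differences that never passed, and the cause was not tested. TXN in BRG1 KO against Parental cells was -0.02 with no filter and -0.23 to 0.17 with single libraries left out, and PRDX1 there was -0.06 to 0.24. SLC7A11 in BRM KO against Parental cells ran from -0.56 to 0.14, and SRXN1 there was -0.00 without Parental 1 and BRG1 KO 3. TXNRD1 in BRG1 KO against BRM KO was 0.00 with DESeq2 size factors, 0.00 with DESeq2, 0.07 without Parental 1 and BRG1 KO 3, and -0.32 to 0.15 with single libraries left out, and PRDX1 there ran from -0.14 to 0.17.

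The replicate block left the numbers of the 10 genes called at 2 higher and 6 lower, 3 and 2, and 1 and 5 in the 3 comparisons. Deviations of libraries with the same number correlated between -0.0792 and 0.175, so the numbers are not taken as pairs, and among named genes the block lost the calls given above for GSTM4, NFE2L2 and MAFF in BRG1 KO against Parental cells, for CBS in BRG1 KO against BRM KO and for CHURC1 in BRM KO against Parental cells. Low reads limit GPX2 in BRG1 KO, where 14 reads carry the fold, and the intervals of SLC7A11 are the widest of the others.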
